A study of Mus musculus with 2 samples.

Results

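Plasmacytoid dendritic cells were looked for in a sort of live CD8+ cells as the barcodes that carried transcripts of Siglech. The cells came from tumours of MC38, a mouse line derived from a colon carcinoma. A barcode stands for a droplet that is meant to hold 1 cell, and a UMI is 1 counted RNA molecule. A barcode was taken when it had at least 500 detected genes, under 10% of its UMIs from mitochondrial genes, and at least 2 UMIs of Siglech. The rule gave 93 barcodes of 15516 that passed the first 2 limits, out of 17977 deposited. Of these, 61 of 7163 were in the control library and 32 of 8353 in the library from mice whose natural killer (NK) cells had been depleted. They were chosen by their Siglech counts, so the level of Siglech is given only as a description.

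The question of the study was whether losing NK cells alters how CD8+ T cells differentiate within tumours, and it holds 1 library per condition. Both came from wild-type (WT) mice bearing MC38 tumours taken 9 days after implantation. The control group is labelled PBS for treatment, although its library name carries the abbreviation Iso, and the other group was given an antibody against NK1.1 (a-NK1.1 antibody). How many mice were pooled for a library is not stated in the labels. All cells of both groups had passed a sort labelled as CD8+ T cells, so the barcodes described here are those that came through that gate. With 1 library per group there is no spread between animals and no test. Intervals in parentheses are 95% exact intervals that cover counting error only.

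Plasmacytoid dendritic cells are blood and lymphoid tissue cells that sense viral and self nucleic acids through endosomal Toll-like receptors and can release large amounts of type I interferon. They depend on the transcription factor TCF4, also called E2-2, which binds the E-box motif CANNTG. In mice they are recognised by the lectin-like receptor Siglec-H, by BST2 and by LY6D, and subsets carry the gut-homing receptor CCR9 or CD8 alpha. They express less MHC class II than conventional dendritic cells, and they share with B cells the expression of some immunoglobulin transcripts and of terminal transferase.

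The sequence just before the start of 4 genes is shown, because the results turn on them: Siglech, which defines the cells, Ccr9 and Klk1, which are much lower in the other cells of the sort, and Cd8a, the gene behind the sort. Each line gives the 200 bases before the RefSeq start on the plus strand (GRCm38.p6), 5′ to 3′, with every CANNTG in capitals. Siglech lies at chr7:55767984-55768183, Ccr9 at chr9:123767011-123767210, Klk1 at chr7:44225160-44225359 and Cd8a at chr6:71373227-71373426.
Siglech: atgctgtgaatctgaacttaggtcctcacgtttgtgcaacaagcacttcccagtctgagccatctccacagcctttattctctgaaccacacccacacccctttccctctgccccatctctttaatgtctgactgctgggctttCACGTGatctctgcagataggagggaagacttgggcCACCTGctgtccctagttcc
Ccr9: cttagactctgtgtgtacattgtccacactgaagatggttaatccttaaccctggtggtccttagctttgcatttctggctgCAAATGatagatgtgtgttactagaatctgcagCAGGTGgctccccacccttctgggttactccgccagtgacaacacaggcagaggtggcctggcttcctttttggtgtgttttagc
Klk1: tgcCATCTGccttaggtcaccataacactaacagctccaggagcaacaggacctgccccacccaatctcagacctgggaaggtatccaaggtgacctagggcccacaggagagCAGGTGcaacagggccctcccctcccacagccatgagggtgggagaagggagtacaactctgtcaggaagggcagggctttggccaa
Cd8a: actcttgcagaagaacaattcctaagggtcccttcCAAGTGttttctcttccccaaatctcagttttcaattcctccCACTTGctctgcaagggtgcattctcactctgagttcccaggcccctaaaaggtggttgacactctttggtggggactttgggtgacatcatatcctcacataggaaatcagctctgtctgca
Each of the 4 windows held 2 such motifs, and CANNTG reads the same on both strands. In Siglech they began 56 and 20 bases before the start, in Ccr9 118 and 85, in Klk1 197 and 87, and in Cd8a 165 and 123. The motif is common: 58.2% of all 32851 promoter windows of this length held it, as did 62.5% of the 40 windows matched to 27 of the 34 genes of the plasmacytoid identity list. A match is a run of letters, not a bound site.

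The deposited matrices summed to 108106687 control and 128853437 NK-depleted UMIs. The members held 1094638 and 473415 UMIs, with medians of 13927 and 10185.5 per barcode. CD3+CD8+ barcodes, which served as the first comparison, had a UMI of Cd8a or Cd8b1, a UMI of any of the 3 genes Cd3d, Cd3e and Cd3g, and none of Siglech, and numbered 6834 and 8133. Fscn1-high dendritic barcodes, the second comparison, had at least 3 UMIs of Fscn1, which marks matured dendritic cells, at least 10 of Cd74 and under 2 of Siglech, and numbered 59 and 36. Their median UMIs were 29832 and 29595, against 11399.5 and 12290 in CD3+CD8+ barcodes. The libraries shared 391 barcode sequences. One of these was a control member of 1226 UMIs with 2 Siglech UMIs, whose sequence also had 970 UMIs in the NK-depleted library. Another was an NK-depleted member of 80045 UMIs with 17 Siglech and 74 CD3 UMIs, whose sequence had 654 UMIs in the control library. Where leaving both out ended a call described here or moved its value by over 1.5 times, the value without them is given beside it.

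Most members lay well above the Siglech limit. At 10 or more UMIs there were 53 control and 26 NK-depleted members, while 6 and 4 members lay just inside the limit with 2 to 5 UMIs. Just outside it, 25 control and 11 NK-depleted barcodes had a single Siglech UMI, and 22 and 9 of those carried more than 3 CD3 UMIs. Of the barcodes with a single UMI, 1 control and 0 NK-depleted barcodes had a UMI of at least 3 of the other 4 markers Ly6d, Rnase6, Mpeg1 and H2-Ab1. With 2 to 5 UMIs of Siglech, 2 of 6 and 4 of 4 did, and at 10 or more UMIs 46 of 53 and 24 of 26 did.

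Ly6d, Rnase6 and Mpeg1 were carried by most members, and H2-Ab1 by a portion of them. After each barcode was thinned to 8300 UMIs, which left out 4 control and 6 NK-depleted members, Rnase6, a secreted ribonuclease, was seen in 98.2% (90.6 to 100) of the 57 control members left and in 92.3% (74.9 to 99.1) of the 26 NK-depleted ones. Without thinning the shares were 96.7% and 96.9%. Mpeg1, which encodes the pore-forming protein perforin-2, was seen in 98.2% and 96.2% of thinned members, and Ly6d, a small surface protein, in 77.2% and 76.9%. H2-Ab1, the beta chain of an MHC class II molecule, was seen in 33.3% (21.4 to 47.1) and 57.7% (36.9 to 76.6). In thinned CD3+CD8+ barcodes none of these exceeded 3.91%, the H2-Ab1 share in the NK-depleted library.

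Transcripts of CD3, the signalling part of the T cell receptor, split the members into 2 sets with a gap between them, narrow in the control library. Summed over Cd3d, Cd3e and Cd3g, 39 control and 22 NK-depleted members had 0 to 3 UMIs, none had 4 or 5, and 22 and 10 had 6 or more. The lowest values above the gap were 6 and 17 UMIs, and the median of CD3+CD8+ barcodes was 40 and 37. The members above the gap were the larger barcodes, with median totals of 26806.5 and 21410.5 UMIs against 12761 and 8987 below it. Their share was 36.1% (24.2 to 49.4) among control and 31.2% (16.1 to 50) among NK-depleted members. In these barcodes the T cell genes other than Cd3 and Cd8 stood at a median of 65.6% and 58.7% of their CD3+CD8+ level, and the plasmacytoid list at a median of 201 and 164 UMIs per 10000 against 410 and 349 below the gap. Both sets of transcripts were present in the same barcode, each at a lower share. Doublets were not called, so whether such a barcode held a pair of cells was not tested. The division at 3 CD3 UMIs was set after the values were seen and was not scaled to depth. Members with at most 3 are called CD3-low from here on. They include a control member of 1226 UMIs with 3 CD3 UMIs. Among control CD3-low members the T cell list reached 81.6 UMIs per 10000, with a median of 10.6.

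**Figure D1:**
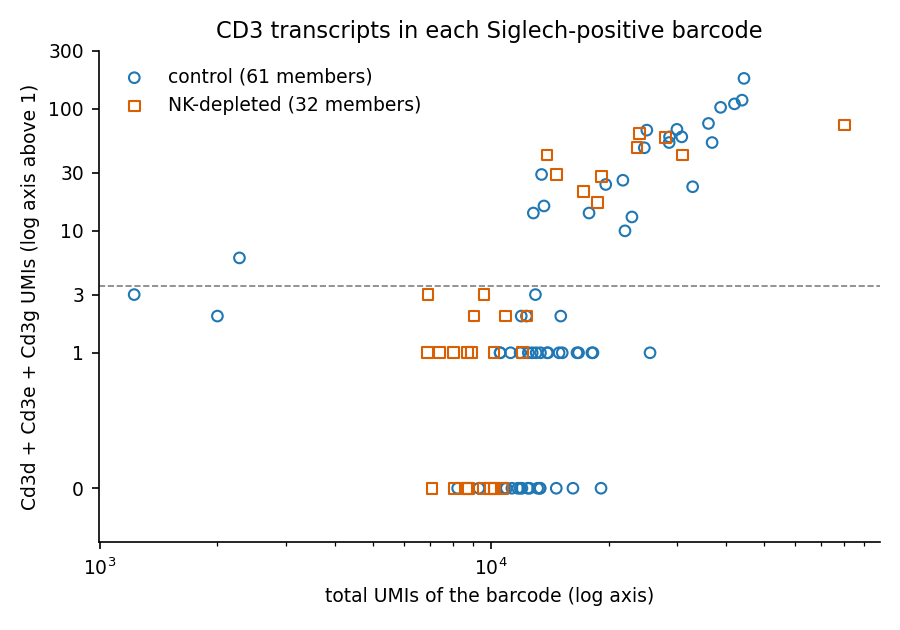
Each point is 1 Siglech-positive barcode, with its total UMIs on the horizontal log axis and its summed Cd3d, Cd3e and Cd3g UMIs on the vertical axis (linear up to 1, log above), control as circles and NK-depleted as squares. The dashed line lies above 3 UMIs: 39 control and 22 NK-depleted members sit under it, none has 4 or 5 UMIs, and the square farthest to the right is the barcode of 80045 UMIs.

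Genes of the plasmacytoid identity list were far higher in members than in CD8+ T cells. Of 33 genes of the identity list that reached 50 CPM (a gene's UMIs per 1000000 UMIs summed over a group) in either group, 29 were at least 4-fold higher in members in each library and none was 4-fold lower. Over all genes tested, 330 of 3636 were 4-fold higher in the control library (9.08%) and 277 of 3551 in the NK-depleted library (7.8%), and 245 of the 3297 tested in both were so in each (7.43%). The list's median log2 ratio was 8.07 in each library, beside 0.02 and 0.11 over all genes tested. Ly6d stood at 1080 and 989 CPM in members against 0.105 and 0.0561 CPM in CD3+CD8+ barcodes. Ccr9, the receptor for the chemokine CCL25, stood at 1759 and 991 CPM against 6.57 and 0.881. Tcf4, the factor that keeps the lineage, stood at 1228 and 1155 CPM against 11.6 and 7.89. Irf8, a transcription factor of dendritic cell development, stood at 2412 and 2032 CPM against 247 and 259. Siglech itself had 1942 and 1348 CPM. It is on the list and among the 29, and its call was fixed in advance because the rule picked members by it. The list was chosen with earlier results of these data known, so its counts describe the members and do not test them.

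The genes with the largest ratios to CD3+CD8+ barcodes were nearly absent from T cells. After Siglech and Ly6d they were Klk1, Cd209d, Dntt, Mzb1, Smim5, Sh3bgr, Foxr1, Cd300c, Blnk and Paqr5. Klk1, a tissue kallikrein, had 515 UMIs in control members and 8 in all control CD3+CD8+ barcodes, a ratio of 6180 (3113 to 14392). In the NK-depleted library Klk1 had 104 and 2 UMIs. Dntt, the terminal transferase of lymphoid progenitors, had 280 and 6 UMIs in the control library and 36 and 3 in the NK-depleted one. Blnk, an adaptor below the B cell receptor and Siglec-H, had 271 and 14 UMIs, and 95 and 5. Klk1 belongs to a cluster of near-identical kallikrein genes on chromosome 7, and how reads shared with Klk1b27 and its other neighbours were assigned is not stated, so its values are uncertain to that degree.

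**Figure D2:**
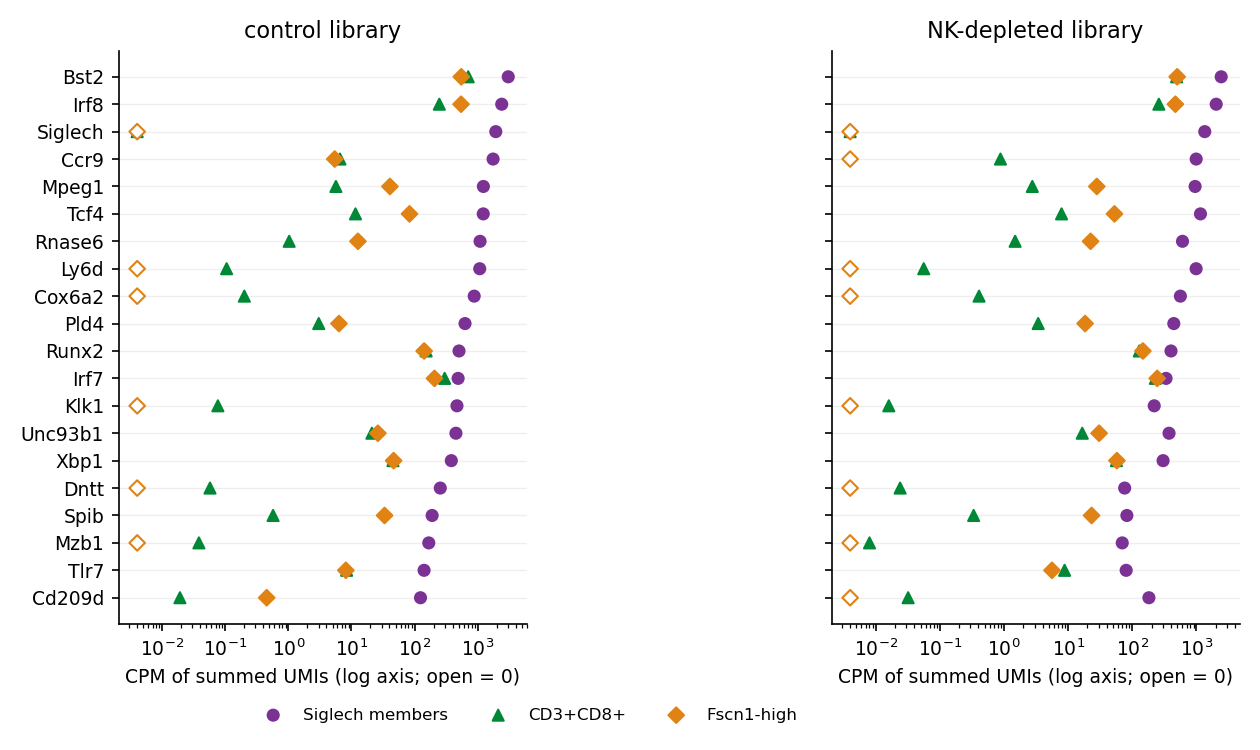
Each row is a gene and each symbol its CPM (log axis) in Siglech members, CD3+CD8+ barcodes or Fscn1-high barcodes, control on the left and NK-depleted on the right, with open symbols for 0 UMIs. Ly6d is at 1080 and 989 CPM in members and at 0 in Fscn1-high barcodes, while Irf7 lies close together in the 3 groups.

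Many genes of a list of Siglec-H and other surface receptors and adaptors were high in the same barcodes. Siglec-H has no signalling tail of its own and pairs with DAP12, the product of Tyrobp, which stood at 2872 and 2621 CPM in members against 12 and 10.3 in CD3+CD8+ barcodes. Syk, the kinase that binds phosphorylated DAP12, stood at 112 and 137 CPM against 1.24 and 0.793. Of the 14 genes of this list that were tested, 12 were at least 4-fold higher in each library and none was 4-fold lower. The list is not limited to partners of Siglec-H, and any call of Siglech itself was fixed in advance by the rule. Over all genes tested 9.08% and 7.8% were 4-fold higher. Hcst, which encodes the related adaptor DAP10 of T and NK cells, stood at 252 and 180 CPM against 571 and 450. In CD3-low members it was 79.0 and 73.9 CPM, more than 4-fold under the CD3+CD8+ level.

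Endosomal sensing genes were present in part. Tlr7, the receptor for single-stranded RNA, stood at 142 and 80.3 CPM against 8.37 and 8.81 in CD3+CD8+ barcodes. Unc93b1, the chaperone that carries these receptors to endosomes, stood at 453 and 374 CPM against 21.1 and 16.6. Irf5, Slc15a4 and Cnpy3, a transcription factor, an endolysosomal transporter and a receptor chaperone, were also at least 4-fold higher in each library, giving 5 of 11 tested genes in the control library and 5 of 10 in the NK-depleted one. The shares over all genes tested were 9.08% and 7.8%. Tlr9, the receptor for unmethylated DNA, had 7 UMIs in control and 2 in NK-depleted members. Irf7, the factor that amplifies interferon transcription, stood at 491 and 336 CPM in members against 300 and 229 in CD3+CD8+ barcodes, under the 4-fold limit.

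Interferon transcripts themselves were all but undetected. Of 20 type I and type III interferon genes listed, control members held 1 UMI of Ifnl2 and 1 of Ifnz, and NK-depleted members held none, among 1094638 and 473415 UMIs. Ifnb1 had 0 UMIs in members of either library. A count of 0 allows up to 3 UMIs, so a low level was not detectable at this depth.

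Of the list for protein secretion and the unfolded protein response few genes passed the limit. Of 29 and 27 tested, Xbp1 and Herpud1 were at least 4-fold above CD3+CD8+ barcodes in each library, a share near or under the 9.08% and 7.8% of all genes. The list's medians on the log2 scale were 0.79 and 0.59, beside 0.02 and 0.11 over all genes tested. Xbp1, the transcription factor of the unfolded protein response in secretory cells, stood at 383 and 302 CPM against 45.4 and 56.6. Of the lysosome and endosome list, 9 of 16 and 10 of 18 tested genes were at least 4-fold higher and none was 4-fold lower, with medians of 2.66 and 2.34 on the log2 scale. Among them were the proteases Ctsl (1208 and 722 CPM against 6.38 and 4.78) and Ctsh (858 and 729 against 7.33 and 3.90), and Psap, the precursor of the saposins (2552 and 1891 against 94.0 and 95.3). The aspartic protease gene Ctsd stood below the T cell level, at 171 and 196 CPM against 348 and 463.

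The B cell and plasma cell genes that reached 50 CPM were Ighm and Igkc, immunoglobulin constant regions. Ighm stood at 660 and 469 CPM against 51.1 and 38.4 in CD3+CD8+ barcodes, and was present in 57 of 61 control and 31 of 32 NK-depleted members. Igkc stood at 114 and 90.8 CPM against 2.89 and 1.97, but was present in only 20 of 61 and 8 of 32 members. A single barcode held 26 of its 43 NK-depleted UMIs. The B cell genes Ms4a1 and Pax5 had no UMI in members of either library.

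Transcripts lower than in CD3+CD8+ barcodes were those of T cell effector programs and of division. Counting all members, 7 of 3297 genes tested in both libraries were at least 4-fold lower in each (0.212%), and 18 without the 2 members whose barcode was in both libraries. In single libraries the counts were 33 (0.908%) and 41 (1.15%). The 8 genes named by rank were Gzmf, Gzmc, Xcl1, Gzma, Gmnn, Ccl3, Ctla2b and Gimap7, of which Gimap7 missed the 4-fold limit in the control library, at 52.1 CPM against 206. Gzmf, a granzyme, stood at 4.57 and 71.8 CPM in members against 376 and 1549 CPM, and at 2.74 and 78.8 CPM in members without the 2 shared barcodes. In CD3-low members, without the barcodes that also carry T cell transcripts, 316 of 3853 genes (8.2%) and 331 of 3762 (8.8%) were at least 4-fold lower than in CD3+CD8+ barcodes, 256 of them in both libraries. Of 14 and 15 tested cell cycle genes, 12 and 13 were 4-fold lower in CD3-low members, and Mki67, which marks dividing cells, stood at 3.95 and 14.8 CPM against 269 and 372.

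Cd8a and Cd8b1 were the exceptions among T cell genes. In CD3-low members 18 of 20 genes of the T cell list were at least 4-fold under the CD3+CD8+ level in each library, and the 2 others were Cd8a and Cd8b1. Over all genes tested 8.2% and 8.8% were 4-fold lower. The Cd3 genes were used to define the set, which also leaves out the barcodes that carried the other T cell transcripts. Of the 15 further genes of the list, all stood at or under 25% of the T cell level. Their medians were 2.28% in the control and 4.83% in the NK-depleted library. Cd8a, which encodes the CD8 alpha chain (chromosome 6, 71373427 to 71379173, mm10), stood at 381 and 335 CPM, or 43.3% (37.4 to 49.9) and 48.2% (37.4 to 61.1) of the T cell level. Cd8b1, which encodes the beta chain (chromosome 6, 71322788 to 71337494), stood at 488 and 266 CPM, or 43.1% (37.9 to 48.9) and 30.6% (23.0 to 40). The receptor constant genes Trac, Trbc1 and Trbc2 together reached 1.87% (1.29 to 2.63) and 4.73% (3.12 to 6.89).

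CD8 transcripts were spread over most CD3-low members. Both Cd8a and Cd8b1 had a UMI in 30 of 39 control and 14 of 22 NK-depleted barcodes, Cd8a alone in 6 and 7, Cd8b1 alone in 1 and 1, and neither in 2 and 0. Thinned to 8300 UMIs, 88.9% (73.9 to 96.9) of the 36 control CD3-low members left and 93.8% (69.8 to 99.8) of the 16 NK-depleted ones had a Cd8a UMI, against 98.5% and 97.8% of CD3+CD8+ barcodes. Trac was seen in 8.33% (1.75 to 22.5) and 31.2% (11.0 to 58.7). Without thinning the Cd8a shares were 92.3% and 95.5%, at median depths of 12761 and 8987 UMIs. Among members with no CD3 UMI at all, 16 control and 10 NK-depleted, Cd8a stood at 53.1% and 54.7% of the T cell level and Cd8b1 at 43.1% and 32.6%.

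The number of CD3 UMIs per CD8 UMI (Cd8a and Cd8b1 summed) was measured in each group. CD3+CD8+ barcodes had 1.61 CD3 UMIs per CD8 UMI (control) and 1.85 (NK-depleted). Fscn1-high barcodes had 1.51 and 1.63. Barcodes with at least 3 UMIs of C1qa, C1qb and C1qc, genes of macrophages, and at most 3 of CD3 had 1.62 and 1.65, from 60 and 28 CD3 UMIs over 65 and 31 barcodes. CD3-low members had 0.0705 and 0.156, from 31 and 19 CD3 UMIs over 39 and 22 barcodes. Fscn1-high barcodes with at most 3 CD3 UMIs had 0.167 and 0.889, from 5 and 8 CD3 UMIs. The limit on CD3 enters the numerator of this ratio in the 3 groups it was applied to. The part of free RNA in the CD8 transcripts of members was not tested.

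Fscn1-high barcodes with at most 3 CD3 UMIs give a second dendritic comparison, of 17 control barcodes and only 5 NK-depleted ones. In the 17 control barcodes there were 28 Cd8a and 2 Cd8b1 UMIs, or 17.8% (11.8 to 25.8) and 0.990% (0.120 to 3.58) of the T cell level. In control CD3-low members the same genes stood at 43.3% and 43.1%. After thinning, 2 of 15 Fscn1-high barcodes of this kind had a Cd8b1 UMI, against 26 of 36 CD3-low members.

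**Figure D3:**
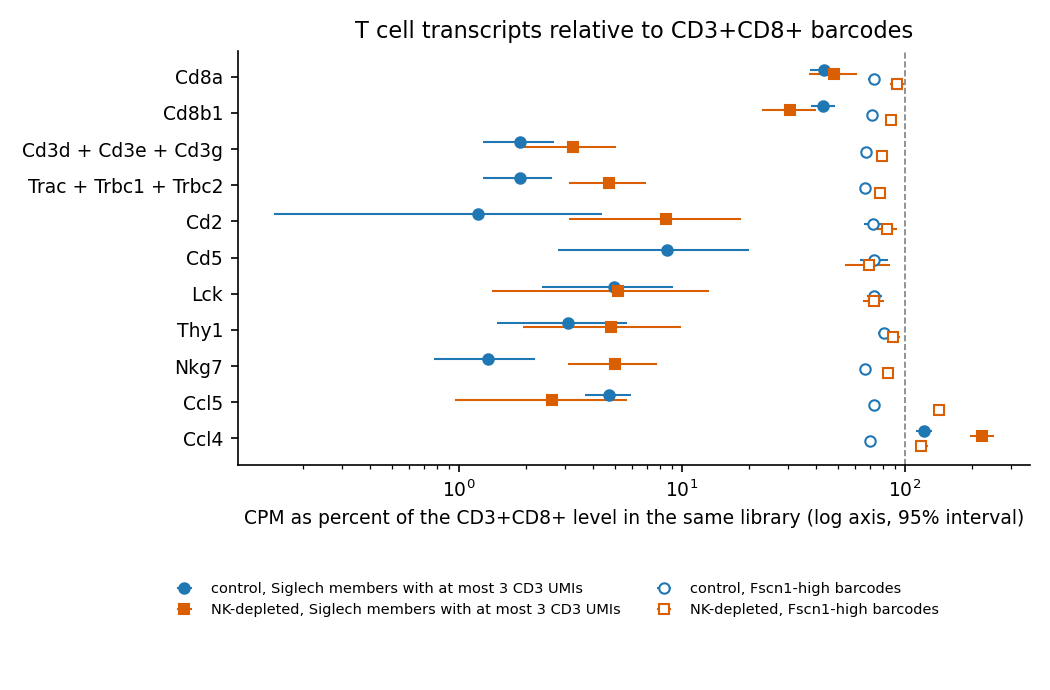
Each symbol is a gene's CPM as percent of its level in CD3+CD8+ barcodes of the same library (log axis, bars are 95% counting intervals), filled for Siglech members with at most 3 CD3 UMIs and open for Fscn1-high barcodes. Filled symbols for Cd8a, Cd8b1 and Ccl4 stand at 30.6% or more of the T cell level and the other T cell transcripts under 10%, while the open symbols lie between 66.2% and 142%; the NK-depleted Cd5 value of 0 is not drawn.

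Ccl4, an inflammatory chemokine, was the other gene shared with effector T cells. Of 12 cytotoxic genes listed, it alone was not 4-fold lower in CD3-low control members, where 8.2% of all genes tested were lower. It stood there at 1103 CPM, 123% (113 to 133) of the T cell level. In the NK-depleted library it stood at 1276 CPM, 222% (196 to 251). It had a UMI in 30 of 39 and 20 of 22 CD3-low members. Its neighbour in function, Ccl3, stood at 7.90 and 39.4 CPM in the same barcodes against 267 and 162 in CD3+CD8+ barcodes.

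Against Fscn1-high barcodes, members were set apart by the same identity genes and by lower levels of maturation genes. Only 17 of the 59 control and 5 of the 36 NK-depleted Fscn1-high barcodes had at most 3 CD3 UMIs. Between CD3-low members and those 17, 32 of 33 tested identity genes were at least 4-fold higher, where 675 of 4056 of all genes were (16.6%). Of 33 identity genes tested, 28 were at least 4-fold higher than in Fscn1-high barcodes in each library, where 256 of 3785 (6.76%) and 207 of 3646 (5.68%) of all genes were, 170 of 3389 in both (5.02%). Siglech is among the 28, and the rule fixed its call in advance. The named genes were Siglech, Ly6d, Ccr9, Cox6a2, Nucb2, Pltp, Ctsl, Klk1, Smim5 and Blnk. Ly6d had 1182 and 468 UMIs in members and none in Fscn1-high barcodes, so it was at least 796-fold and 412-fold higher, with the floor of 3 UMIs over the group. Cox6a2, a subunit of cytochrome c oxidase, was likewise at 0 in Fscn1-high barcodes and at least 651-fold and 234-fold higher. Pltp, a phospholipid transfer protein, stood at 456 and 317 CPM against 1.36 and 2.40.

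The maturation list was lower as a group. Of 14 tested genes in each library, 11 in the control and 12 in the NK-depleted library were at least 4-fold lower in members, where 141 (3.73%) and 107 (2.93%) of all genes tested were, and its medians on the log2 scale were -4.03 and -3.45. Between control barcodes of both groups with at most 3 CD3 UMIs, 14 of 14 tested genes were 4-fold lower in members, where 478 of 4056 of all genes were (11.8%). Ccr7, the receptor that guides dendritic cells to lymph nodes, stood at 61.2 and 19 CPM in members against 972 and 876. Il12b, the p40 subunit of interleukin 12, had no UMI in members against 133 and 229 UMIs in Fscn1-high barcodes, which were at least 21.9-fold and 28.9-fold higher. Other named genes lower in members were Tbc1d4, Ramp3, Cacnb3, Marcksl1, Il4i1, Socs2, Fscn1, Mmp25 and Cxcl16. Fscn1 was used to pick the comparison group, so its own ratio is not read. It is on the maturation list, so the counts and medians above include a gene whose direction the rule fixed. One control member of 25526 UMIs carried 46 of the 47 Fscn1 UMIs of all control members, together with 25 Siglech and 1 CD3 UMI.

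MHC class II genes lay between those of T cells and those of Fscn1-high cells. Of 7 tested genes in each library, 5 control and 7 NK-depleted were at least 4-fold above CD3+CD8+ barcodes, beside 9.08% and 7.8% of all genes. Against Fscn1-high barcodes 4 of 9 and 3 of 9 were at least 4-fold lower, beside 3.73% and 2.93% of all genes. In the same comparison 0 and 2 of 9 were at least 4-fold higher, beside 6.76% and 5.68%. Cd74 was also used to pick the Fscn1-high barcodes, so its ratio to them is not read, though the counts include it. H2-Ab1 stood at 222 and 323 CPM in members, 40.4 and 31.2 in CD3+CD8+ barcodes and 811 and 564 in Fscn1-high barcodes. The invariant chain Cd74 stood at 1131 and 1400 CPM in members against 91.7 and 66.0 in CD3+CD8+ barcodes. H2-DMa, which loads peptide, went the other way, with 227 and 266 CPM in members and 72.3 and 64.8 in Fscn1-high barcodes. The Fscn1-high group held T cell transcripts at 66.5% and 77.4% of the T cell level for the receptor constant genes, and their part in these ratios was not tested.

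Some markers of conventional dendritic cells were present in members, mainly those listed for type 2. Of 9 genes listed for type 2 conventional dendritic cells, 0 and 1 had no UMI in members. Of the 5 tested in each library, 4 were at least 4-fold above CD3+CD8+ barcodes in each, and 1 was 4-fold lower in the control library, with medians of 7.74 and 7.78 on the log2 scale. Over all genes tested 9.08% and 7.8% were 4-fold higher. Against Fscn1-high barcodes 4 of 6 tested genes were at least 4-fold higher in each library, beside 6.76% and 5.68% of all genes. Of the same 6 genes, 2 in the control and 1 in the NK-depleted library were at least 4-fold lower, beside 3.73% and 2.93%. Of 10 genes listed for type 1 conventional dendritic cells, 8 had UMIs in members of each library, but all 10 also had UMIs in CD3+CD8+ barcodes. Only 2 and 1 of the 10 were tested, and 1 and 0 were at least 4-fold higher in members. All 13 NK-depleted Batf3 UMIs came from the barcode of 80045 UMIs. Xcr1 had no UMI in members, Clec9a stood at 68.5 and 38.0 CPM, and Clec10a, a lectin of type 2 conventional dendritic cells, stood at 299.6 and 127 CPM against 0.428 and 0.200 in CD3+CD8+ barcodes. The 14 macrophage and monocyte markers summed to 123 and 69.7 CPM against 25.4 and 17.2 in CD3+CD8+ barcodes, with 4 and 9 of the 14 at 0 in members. Apoe, an apolipoprotein, was the highest of them that was tested, at 77.7 and 31.7 CPM. Of 8 neutrophil markers only Il1r2, a decoy receptor for interleukin 1, had UMIs, 7 and 29, of which 27 of the 29 came from the barcode of 80045 UMIs. The cadherin genes Cdh1 and Cdh5, which epithelial and endothelial cells express, stood at 127 and 52.8 and at 80.4 and 42.2 CPM, with Cdh5 at 0 and 0.00801 CPM in CD3+CD8+ barcodes. Of the 11 genes listed for tumour epithelium and stroma, 7 had no UMI in members of either library. Among these 7 were Krt8, Krt18, Krt19, Col1a1, Col1a2 and Col3a1. Within CD3-low members the summed macrophage list ranged from 0 to 97.9 UMIs per 10000 in the control library, with a median of 0. The highest value was that of the shared barcode of 1226 UMIs, with 12 macrophage UMIs, and the next was 13.7.

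Members differed among themselves in MHC class II and in Klk1. Among CD3-low members H2-Ab1 had a UMI in 16 of 39 control and 16 of 22 NK-depleted barcodes, with medians of 0 and 2.02 and maxima of 23.2 and 28.8 UMIs per 10000. The rank correlation of Cd74 with H2-Ab1 across barcodes was 0.82 over 39 control and 0.85 over 22 NK-depleted barcodes, which share a library and differ in depth. Barcodes with H2-Ab1 had 3777 CPM of Cd74 in the control library against 420 without it, and 3209 against 597 in the NK-depleted library. Ly6d was also higher with H2-Ab1, 1.80-fold (1.55 to 2.09) and 2.12-fold (1.53 to 3.01). Ccr9 was 0.676 times as high (0.597 to 0.765) in the control library and 0.921 times (0.722 to 1.18) in the NK-depleted library.

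Klk1 had a UMI in 19 of 39 control and 8 of 22 NK-depleted CD3-low members, and reached 48 and 18.8 UMIs per 10000. Bst2, an interferon-inducible surface protein, was seen in every CD3-low member, between 10.0 and 63.2 UMIs per 10000 in the control and 10.8 and 59.9 in the NK-depleted library. Cd8a and Cd8b1 had a rank correlation of -0.06 (control) and 0.45 (NK-depleted).

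**Figure D4:**
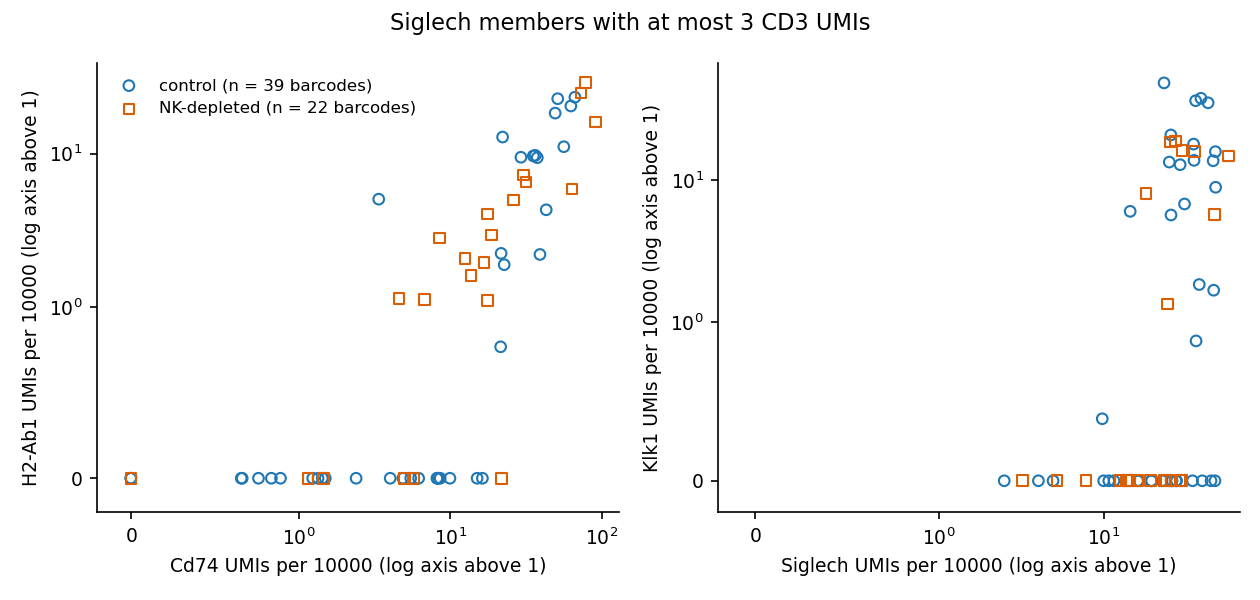
Each point is 1 CD3-low member, with UMIs per 10000 on axes that are linear up to 1 and logarithmic above, control as circles and NK-depleted as squares. On the left H2-Ab1 is 0 in 23 of 39 control and 6 of 22 NK-depleted barcodes and high where Cd74 is high; on the right Klk1 is 0 in 20 and 14 barcodes.

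The share of members was lower in the library from NK-depleted mice. They were 0.852% (0.652 to 1.09) of the control barcodes kept and 0.383% (0.262 to 0.540) of kept NK-depleted barcodes, a ratio of 0.450 (0.284 to 0.701). CD3-low members alone gave 0.484 (0.273 to 0.836). Fscn1-high barcodes gave 0.523 (0.336 to 0.805), and whether the ratios differ was not tested. Fscn1-high barcodes with at most 3 CD3 UMIs were 0.237% and 0.0599% of kept barcodes, from 17 and 5 barcodes. Barcodes with at least 3 UMIs of C1qa, C1qb and C1qc and at most 3 of CD3 were 0.907% and 0.371%. The lower share was thus not particular to members. The sort gate sets how many such cells enter a library, and gate and treatment cannot be told apart with 1 library each. At no point does the share measure the cells' frequency in the tumour.

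Within members, most tested genes of an interferon response list were lower after NK cell depletion. Not all interferon-induced genes were: Ifitm2, which that list leaves out, and Ifitm1 of the same family were higher. Without the 2 shared barcodes their ratios were 4.01 and 5.41, but the log2 ratio of Ifitm1 turned to -2.24 in members with 0 CD3 UMIs. Of 19 tested genes of the interferon response list, 8 were at least 2-fold lower and none was 2-fold higher, where 91 of 3525 (2.58%) and 85 (2.41%) of all genes tested were. The list's median on the log2 scale was -0.85 beside -0.04 over all genes. Rsad2, which encodes the antiviral enzyme viperin, stood at 227 and 53 CPM, a ratio of 0.232 (0.147 to 0.351). Ifit1, which binds viral RNA, stood at 146 and 36 CPM, and Iigp1, a GTPase, at 200 and 70. Without the 2 members whose barcode was in both libraries 4 of 19 were at least 2-fold lower, where 88 of 3490 of all genes were (2.52%), and the list's median was -0.71. These 4 were Rsad2, Ifit1, Ifit2 and Iigp1. The count was likewise 4 of 18 without the 10% of members with the most UMIs, and 5 of 19 with a Siglech minimum of 5. In CD3-low members 12 of 17 tested genes were at least 2-fold lower, with or without the shared barcode, where 222 of 3547 genes (6.26%) were and 158 (4.45%) were 2-fold higher, and Rsad2 had a UMI in 23 of 39 control and 5 of 22 NK-depleted barcodes.

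Most of these genes were also lower in CD3+CD8+ barcodes. Of the same 19 genes, 18 were below 1 in CD3+CD8+ barcodes, with a median ratio of 0.732 and 2 genes at 0.5 or less. In Fscn1-high barcodes 11 were below 1, with a median of 0.975, and in members 18, with a median of 0.555. Whether the ratios differ between cell types was not tested. Depth also differed, with median totals of 13927 and 10185.5 UMIs in members of the 2 libraries.

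**Figure D5:**
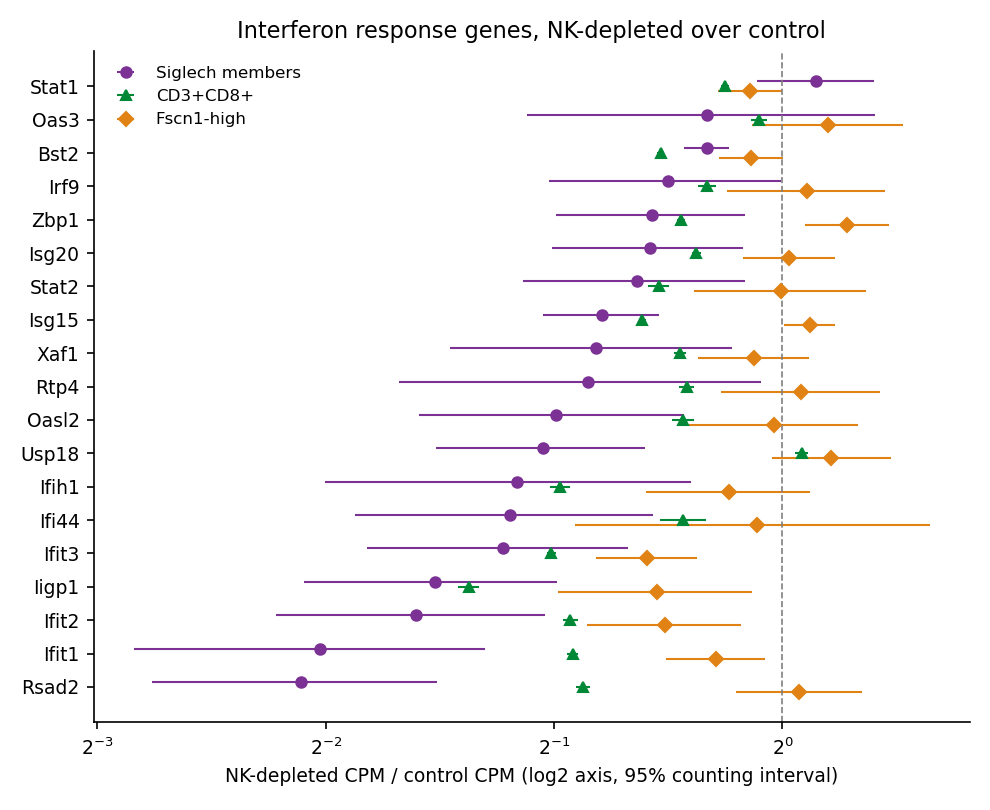
Each row is an interferon response gene tested in members, and each symbol the ratio of its NK-depleted to its control CPM (log2 axis, bars are 95% counting intervals) in Siglech members, CD3+CD8+ or Fscn1-high barcodes. Rsad2 is lowest in members at 0.232, and of the 19 genes 18 lie under 1 in members and in CD3+CD8+ barcodes and 11 in Fscn1-high barcodes.

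Of 33 identity genes tested, 5 were at least 2-fold lower in NK-depleted members and none 2-fold higher, beside the 2.58% of all genes, with a median of -0.51 on the log2 scale beside -0.04. The 5 were Dntt (256 and 76 CPM), Pacsin1, Mzb1, Spib and Klk1 (470 and 220 CPM). Without the 2 shared barcodes 3 were, Dntt, Pacsin1 and Mzb1, with a median of -0.30, and Spib and Klk1 had ratios of 0.521 and 0.561. Of the same 33 genes, 8 in CD3+CD8+ and 7 in Fscn1-high barcodes had a ratio of 0.5 or less, and whether the ratios differ was not tested. Those counts rest in part on very few UMIs. Of the 34 listed genes, 8 in control and 13 in NK-depleted Fscn1-high barcodes had no UMI, and several were near 0 in CD3+CD8+ barcodes. In CD3-low members 4 of 33 were at least 2-fold lower, where 222 of 3547 of all genes were (6.26%), with a median of -0.45. There Klk1 stood at 848 and 458 CPM, but in members with no CD3 UMI its log2 ratio turned to 0.86. Tcf4, at 1228 and 1155 CPM, and Bcl11a, another factor the lineage needs, at 515 and 505 CPM, were nearly equal. Cd180, a Toll-like receptor homologue of B cells and dendritic cells, stood at 126 and 27 CPM. The other genes among the 10 lowest ratios were Cxcl10, Ccl5, Klk1b27, Hist3h2ba, Pir and Ifit2. Of 1024 control and 111 NK-depleted Ccl5 UMIs, only 72 and 6 were in CD3-low members, and single barcodes held 281 and 74. Cxcl10, an interferon-induced chemokine, stood at 201 and 11 CPM, but 158 of its 220 control UMIs came from 1 barcode.

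Genes higher in NK-depleted members rested largely on few barcodes. The 10 highest ratios were those of Gzmf, Mt1, Il1r2, Ifitm1, Pclaf, Gzmb, Smpd4, Ifitm2, Top2a and Mybbp1a. The barcode of 80045 UMIs held 34 of 43 Mt1, 27 of 29 Il1r2, 50 of 55 Pclaf, 376 of 664 Gzmb and 89 of 106 Top2a UMIs. Without the 2 members whose barcode was in both libraries, 42 genes in place of 85 were at least 2-fold higher, and Top2a and Pclaf turned to 0.666 and 0.632. The ratios of Gzmb, Mt1, Smpd4 and Mybbp1a, at 3.38, 9.04, 5.97 and 3.44 over all members, became 1.77, 2.50, 2.08 and 2.25, and Il1r2 stood at 6.40 and 5.08 CPM. Gzmf had 34 UMIs over 20 of 32 NK-depleted members against 5 UMIs in 4 of 61 control members, a ratio of 15.7 (6.12 to 51.5). Of the 5 control UMIs 2 came from the shared barcode of 1226 UMIs, and without the 2 shared barcodes the ratio was 28.7 (8.96 to 147). CD3+CD8+ barcodes had a Gzmf ratio of 4.12, and in CD3-low members Gzmf stood at 2.10% and 5.41% of their level. Ifitm2, an interferon-induced membrane protein, was higher in CD3-low members too, at 59.3 and 310.3 CPM, a ratio of 5.23 (3.34 to 8.38), beside 3.04 in CD3+CD8+ barcodes. A single barcode held 18 of its 30 control UMIs and another 40 of its 63 NK-depleted UMIs there. Without both barcodes it stood at 24.3 and 119 CPM, a ratio of 4.90 (2.34 to 10.8).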

How the data were processed

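Live CD8+ cells from MC38 tumours were profiled with the 10x Genomics 5' version 2 chemistry, per the labels' protocols. The deposited files hold raw UMI counts per gene and barcode, and the file headers name Cell Ranger 6.1.2 as the authors' software. The submitters' processing notes name mm10 and Seurat 4.0.6. Nothing states that free RNA or doublets were removed, and neither was removed here.

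Counts were summed over the barcodes of each group and library and given as CPM. A gene was tested for size at 50 CPM or more in either group, and called at 4-fold between cell types or 2-fold between libraries. No p-value was computed. Ratios carry exact conditional binomial and shares exact Clopper-Pearson 95% intervals, which cover counting error only. A fold against 0 UMIs uses a floor of 3 UMIs over the group. Shares of barcodes were compared after thinning to 8300 UMIs, the rounded 10th percentile of the members. Named genes were the 12 largest and 8 smallest ratios to CD3+CD8+ barcodes, the 10 largest and 10 smallest to Fscn1-high barcodes and between libraries, and the genes of 22 lists, of which 339 of 342 were in the matrix. Receptor and immunoglobulin segments, mitochondrial, ribosomal and unnamed genes were left out of the ranking. The members and lists were chosen with earlier results of these data known. Gene positions come from GENCODE M21 (GRCm38, the same build as mm10) and promoters from RefSeq. Analyses used Python 3.11.15, numpy 2.4.6, scipy 1.17.1, pandas 2.3.3 and R 4.3.3, and edgeR 4.0.16 for the TMM factors. The size calls were tested on simulated data. Alternatives changed the Siglech, CPM and mitochondrial limits, the members, the scaling and the comparison groups. Results for a few genes are not reported here.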

Additional observations from a re-analysis of the deposited data

Results flagged for a closer look

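For 3 of the genes reported here the ratio of NK-depleted to control CPM in Siglech members ran opposite to that in CD3+CD8+ and in Fscn1-high barcodes, and the difference was not tested. These genes were picked by that opposition, with every interval leaving out 1, so the opposition describes them and tests nothing. Cd74, the MHC class II invariant chain, had a ratio of 1.24 in members, 0.719 in CD3+CD8+ barcodes and 0.799 in Fscn1-high barcodes. Cd74 was also used to pick the Fscn1-high barcodes, so its ratio there is limited by that rule. Rnase6 had 0.554 in members and 1.45 and 1.77 in the others. Zeb2, a transcription factor of dendritic and effector T cells, had 1.36 in members and 0.718 and 0.573. Each ratio compares 1 library with 1 library. Fscn1-high barcodes also held T cell transcripts, so they are not independent of CD3+CD8+ barcodes.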

How the results depend on the processing

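No paired analysis was possible because each group is 1 library with no replicate, and leaving out a replicate was not run for the same reason. The alternatives below with at most 3 CD3 UMIs, and those without the 2 members whose barcode was in both libraries or without the member with the most Ifitm2 UMIs in each, were chosen after seeing the data. For each value that moved, the cause was not tested.

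Genes 4-fold higher than in CD3+CD8+ barcodes in both libraries numbered 245, and 494 with a minimum of 10 CPM, 873 with none and 368 with at most 3 CD3 UMIs. Genes 4-fold lower numbered 7, and 2 with a Siglech minimum of 1, 261 with 0 CD3 UMIs, 256 with at most 3, 90 without the 10% of members with the most UMIs, 88 by the mean of CPM over barcodes, 11 with TMM, 11 with the median of ratios, 33 with a minimum of 10 CPM, 5238 with none and 18 without shared barcodes. Against Fscn1-high barcodes 170 were higher, and 286 with 0 CD3 UMIs, 290 with at most 3, 337 with a minimum of 10 CPM and 629 with none. There 72 were lower, and 267, 270, 166 and 839 under the same 4 settings, 128 without the members with the most UMIs and 140 by the mean of CPM. Between libraries 85 were higher in members, and 40 with a Siglech minimum of 1, 443 with 0 CD3 UMIs, 158 with at most 3, 606 with a minimum of 10 CPM, 1773 with none and 42 without shared barcodes. There 91 were lower, and 376 with 0 CD3 UMIs, 222 with at most 3, 634 with a minimum of 10 CPM and 2614 with none.

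The control share of 0.852% became 1.20% with a Siglech minimum of 1, 1.13% when Siglech was counted after thinning, 0.223% with 0 CD3 UMIs and 0.544% with at most 3. The NK-depleted share of 0.383% became 0.120% with 0 CD3 UMIs. Over all control members Cd8a stood at 60.3% of the T cell level, Cd8b1 at 64.9% and the CD3 genes at 33.7%. These became 53.1%, 43.1% and 0% with 0 CD3 UMIs, 43.3%, 43.1% and 1.89% with at most 3, and 53.2%, 57.9% and 20.2% without the members with the most UMIs. In the NK-depleted library Cd8a at 59.8% became 48.2% with at most 3 CD3 UMIs, Cd8b1 at 48.9% became 32.6% with 0 and 30.6% with at most 3, and CD3 at 32.2% became 0%, 3.24% and, without the members with the most UMIs, 27.6%.

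The log2 ratio between libraries turned its sign with 0 CD3 UMIs for Ccl5 (0.39), Ifitm1 (-2.24), Klk1 (0.86) and Mt1 (-0.29), with at most 3 for Mt1 (-0.27), without shared barcodes for Pclaf (-0.66) and Top2a (-0.59), and by the mean of CPM for Top2a (-0.42). Of the values for single genes and lists, 1776 stayed, 197 moved and 8 turned their sign.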
